A study of Drosophila melanogaster with 6 samples.

Results

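The Hox genes of Drosophila melanogaster are 8 genes on chromosome arm 3R that encode homeodomain transcription factors. In the Antennapedia complex (ANT-C), labial (lab), proboscipedia (pb), Deformed (Dfd), Sex combs reduced (Scr) and Antennapedia (Antp) specify head and anterior thoracic segments, and in the bithorax complex (BX-C), Ultrabithorax (Ubx), abdominal-A (abd-A) and Abdominal-B (Abd-B) specify the posterior thorax and the abdomen. All 8 were found by symbol among the 17873 annotated genes considered, 5 in ANT-C and 3 in BX-C. Every Cyclin G (CycG) peak from 50 kb before to 50 kb after each gene was collected, which gave 3 of the 3363 peaks of the genome: 2 in ANT-C and 1 in BX-C. No Hox gene had a transcript start inside a peak, and 1 of the 8, pb, had a peak in its body, in sequence that cannot be placed uniquely in the genome.

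The series mapped the binding of CycG by chromatin immunoprecipitation and sequencing (ChIP-seq) in wing imaginal discs, the larval primordia of the wings and dorsal thorax, from female larvae of the third instar raised at 25 °C. In the ChIP group (2 libraries), da-Gal4, a ubiquitous driver, expressed UAS-Myc-CycGΔP, a Myc-tagged CycG without its PEST-rich domain, and chromatin was precipitated with anti-Myc antibody; each library had its own input of the same genotype (2 libraries). A control of da-Gal4/+ discs without the tagged protein was made once, as a mock ChIP and its input. The peaks therefore describe an overproduced, tagged and truncated form of the protein, averaged over pools of 600 whole discs, and not the endogenous protein in the cells that express a given Hox gene. The single list analysed here holds positions called in both ChIP libraries, with no height, score or read count. The depth behind a peak is unknown, no spread between replicates can be given, and intervals cover counting error of peaks only. The mock libraries were not analysed here.

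Hox genes are held off or on through cell division by the Polycomb and Trithorax groups of chromatin proteins, which act through response elements spread over introns and intergenic DNA and through the promoters. In the wing disc, Antp is active in parts of the disc, whereas Ubx, the selector gene of the haltere, is kept silent in most of it and abd-A and Abd-B are abdominal genes. CycG is a cyclin known to bind chromatin regulators of the class of Enhancers of Trithorax and Polycomb, to interact genetically with Polycomb group genes and to act on homeotic gene expression, and the comparison addressed whether the protein lay at the Hox genes themselves in this tissue.

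The 2 peaks at transcript starts are shown first, with the promoters of 4 Hox genes. No peak covered the start of any of the 8, and these 4 were chosen for display, after their values were seen, as the 3 genes of BX-C and, from ANT-C, the one with the most GAGAG matches. The peak sequences run from the edge upstream of the gene to 10 bases into the transcript, and the Hox promoters from 200 bases before to 10 bases into the transcript from the 5′-most annotated start. They were read from the RefSeq sequence of dm6, 5′ to 3′ along the gene. Capitals mark GAGAG, the core bound by GAGA factor (Trl), GCCAT, the core bound by Pleiohomeotic (Pho), TATCGATA, the DNA replication-related element, TCAGT, an initiator core, and TATAAA, the TATA box, on either strand.
Taf1 start in a peak, chr3R:6646749-6646898, plus strand: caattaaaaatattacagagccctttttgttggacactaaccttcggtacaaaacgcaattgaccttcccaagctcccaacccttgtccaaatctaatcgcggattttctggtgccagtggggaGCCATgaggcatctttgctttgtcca
Sf3a1 start in a peak, chr3R:17002346-17002520, minus strand: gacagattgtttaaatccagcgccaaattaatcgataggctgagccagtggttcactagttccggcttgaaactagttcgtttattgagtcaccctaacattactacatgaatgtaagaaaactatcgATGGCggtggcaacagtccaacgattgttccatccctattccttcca
Dfd, no peak, chr3R:6791636-6791845, plus strand: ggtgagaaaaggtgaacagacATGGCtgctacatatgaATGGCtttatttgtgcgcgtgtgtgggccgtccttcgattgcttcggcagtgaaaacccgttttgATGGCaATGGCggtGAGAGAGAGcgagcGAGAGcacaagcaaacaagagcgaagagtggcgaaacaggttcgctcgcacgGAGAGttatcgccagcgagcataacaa
Ubx, no peak, chr3R:16734417-16734626, minus strand: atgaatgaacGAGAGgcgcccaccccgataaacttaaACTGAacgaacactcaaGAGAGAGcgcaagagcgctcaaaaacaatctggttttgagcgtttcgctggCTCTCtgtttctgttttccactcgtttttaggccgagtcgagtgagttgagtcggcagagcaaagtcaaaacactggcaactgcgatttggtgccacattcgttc
abd-A, no peak, chr3R:16830040-16830249, minus strand: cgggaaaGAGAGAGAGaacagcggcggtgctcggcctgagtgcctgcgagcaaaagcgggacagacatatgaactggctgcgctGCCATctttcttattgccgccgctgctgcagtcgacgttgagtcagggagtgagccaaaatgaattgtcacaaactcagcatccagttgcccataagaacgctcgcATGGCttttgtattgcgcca
Abd-B, no peak, chr3R:16972227-16972436, minus strand: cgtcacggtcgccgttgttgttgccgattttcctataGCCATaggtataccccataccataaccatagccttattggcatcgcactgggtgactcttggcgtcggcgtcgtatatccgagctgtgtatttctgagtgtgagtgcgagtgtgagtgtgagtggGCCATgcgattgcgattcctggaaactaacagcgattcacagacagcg

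The windows of neighbouring Hox genes overlapped and joined into 1 stretch per complex. ANT-C spanned chr3R:6611427-7049228, 437802 bp, and BX-C chr3R:16606623-17022236, 415614 bp (dm6, 1-based). The peak nearest to lab lay at chr3R:6646749-6647013 and was 265 bp wide. It covered the start of Taf1 (FBgn0010355, plus strand), which encodes the largest subunit of the general transcription factor TFIID, with its centre 8 bp upstream of the start. The peak in the Abd-B window, chr3R:17002267-17002520, was 254 bp wide and covered the start of Sf3a1 (FBgn0266917, minus strand), a subunit of the spliceosomal factor SF3a, with its centre 38.5 bp upstream. The neighbouring gene Irc, which starts 355 bp from this peak on the opposite strand, had no start in it. In both, 100% of the 75 bp words, the read length, occurred once in the genome. Both genes lie beside the Hox genes and belong to the basic machinery of transcription and splicing: Taf1 past the 3′ end of lab, and Sf3a1 upstream of Abd-B.

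**Figure D1:**
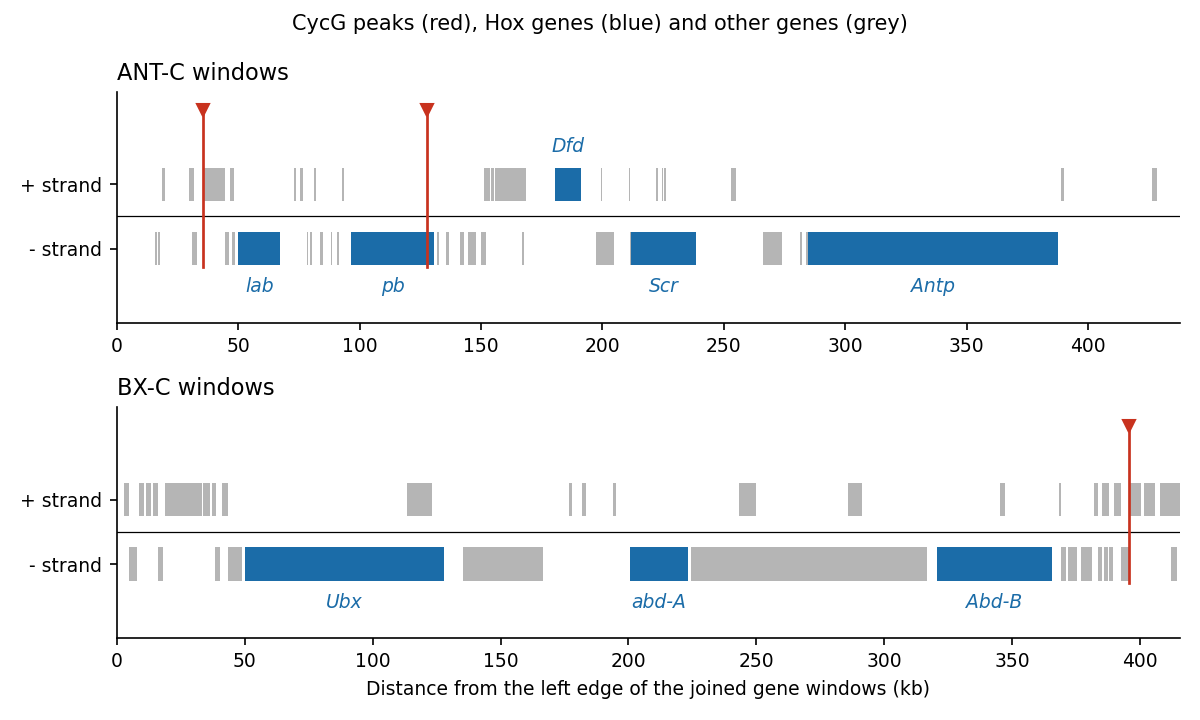
Map of the ANT-C (top) and BX-C (bottom) windows, in kb from the left edge of each, with Hox genes as blue boxes, other annotated genes as grey boxes, each on its strand, and CycG peaks as red lines with a triangle. The 3 peaks fall at the left of ANT-C (start of Taf1), in the intron of pb and at the right of BX-C (start of Sf3a1), and the windows of Dfd, Scr, Antp, Ubx and abd-A hold none.

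The 3rd peak lay inside pb (FBgn0051481, minus strand), which specifies the adult mouthparts. At chr3R:6738920-6739097, it was 178 bp wide and fell in intron 2 of all 4 annotated transcripts, 452 bp past the second exon and 2966 bp downstream of the pb start. All of it was repeat-masked, and 0% of its 75 bp words occurred once in the genome. It sat inside an annotated copy of Doc, a non-LTR retrotransposon, 1730 bp long (chr3R:6737554-6739283). The same 178 bp occurred 91 times on the 7 chromosome arms, and 4 of those copies, this one included, overlapped a peak, so reads from any of them could have been placed here. Whether the discs carried this insertion, which is in the reference strain, was not tested, and its sequence is not shown because its letters are not particular to pb.

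Such a position was usual for peaks in introns. All 48 intron peaks in the rest of 3R euchromatin overlapped an annotated transposable element, and 0 of the 48 had at least 90% unique words, against 125 of 126 peaks at transcript starts. On the 7 arms, 16 of 81 annotated Doc copies overlapped a peak (19.8%, Wilson 95% interval 12.5 to 29.7%), and 482 of 5889 elements of all families did (8.18%, 7.51 to 8.91%). ANT-C held 15 annotated elements, of which the Doc copy in pb was the only one with a peak, and BX-C held 4, among them a 6133 bp diver copy between Ubx and abd-A, with no peak on any.

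No Hox start was in a peak. The 8 genes have 19 distinct annotated starts, from 1 each for pb, Dfd and Ubx to 6 for Abd-B. Among the 3407 protein-coding genes that start in 3R euchromatin (beyond position 4200000), 4.37% had a start in a peak, so that 0.35 genes of 8 would have at that share. The share was 3.62% of all 4202 genes there, 5.68% of the 13986 protein-coding genes of the genome and 5.04% of all 17873 genes. The count of 0 was thus near the background and does not set the Hox genes apart. A peak overlapped the body of 1 of the 8, pb, against 5.81% of the same 3407 genes, or 0.465 genes of 8. The count of starts stayed at 0 when a peak within 500 bp or within 2 kb of a start was accepted. Absence from the list does not show absence of binding. The CycG gene, with 0 peaks in its body, had its nearest start 275827 bp from a peak. The paper reported binding at the start of that gene, by ChIP-seq and by ChIP-qPCR.

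The distance from the nearest annotated start to the nearest peak edge ordered the genes as follows. The start of pb was 2966 bp from the Doc peak. The lab start was 16441 bp from the Taf1 peak, and the more distal of its 2 starts 31577 bp. The 6 Abd-B starts, which drive its m and r transcript classes, lay 30031 to 68025 bp from the Sf3a1 peak. These 3 genes were the only Hox genes with a peak within their windows.

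The other 5 lay farther away. Dfd, a head selector gene, was 52739 bp from the Doc peak. Antp, which specifies the second thoracic segment and has 3 starts within 66388 bp, lay 87126 to 153514 bp from the peak at the start of alphaTub84B, an alpha-tubulin gene. Scr, which acts in the labial and first thoracic segments, was 109408 bp from the Doc peak at the nearer of its 2 starts. For Ubx, the distance was 160277 bp, to an intergenic peak beyond the 3′ end of the gene (chr3R:16573848-16574149). The 3 starts of abd-A were 172218 to 174162 bp from the Sf3a1 peak.

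The median over the 8 Hox genes was 69932.5 bp, against 36193 bp over the 3407 protein-coding genes. Individually, 90.1% of those genes were as far or farther from a peak as pb, 69.4% as lab, 55.6% as Abd-B and 38.5% as Dfd. For Antp the share was 22%, for Scr 16.6%, for Ubx 8.86% and for abd-A 7.87%. The Hox genes thus lay on both sides of the median of the arm. Neighbouring members shared peaks, so that the 8 distances rest on 5 peaks and are not independent. Counting only peaks with at least 90% unique words, pb moved to 95050 bp, Dfd to 144823 bp and Scr to 201492 bp, and the median to 119936.5 bp; the other 5 distances did not move.

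**Figure D2:**
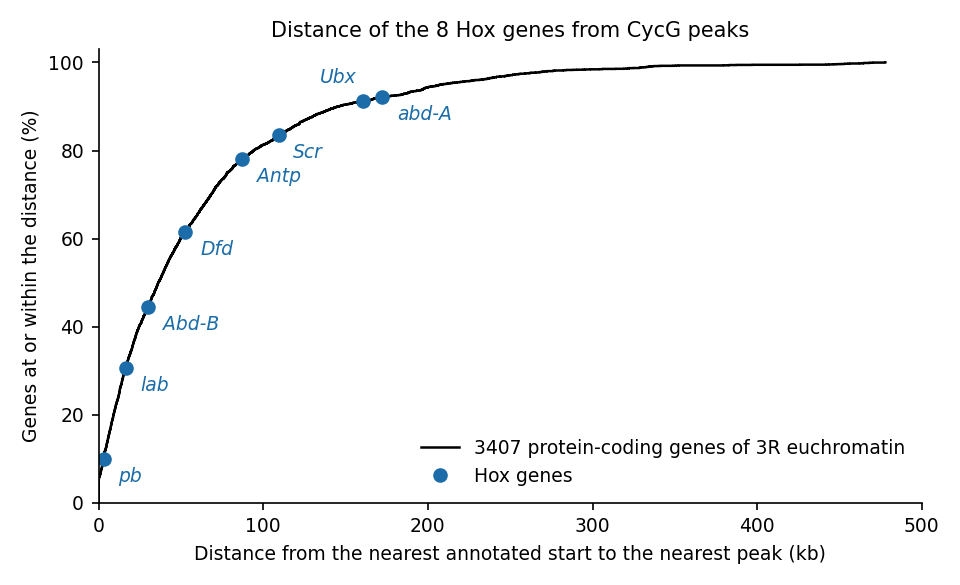
Distance in kb from the nearest annotated start to the nearest peak for 3407 protein-coding genes of 3R euchromatin, drawn as the percentage of genes at or within each distance (line), with the 8 Hox genes as blue points. The points run from pb at 2966 bp to abd-A at 172218 bp.

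Peak density in the complexes was compared with the rest of 3R euchromatin. ANT-C held 2 peaks, or 4.57 per Mb (exact Poisson 95% interval 0.553 to 16.5), and BX-C held 1, or 2.41 per Mb (0.0609 to 13.4). Together they had 3.52 peaks per Mb (0.725 to 10.3), against 9.14 per Mb (8.04 to 10.4) for the 247 peaks in the rest. At that density, 7.8 peaks would fall in a length equal to both. The ratio was 0.5 for ANT-C (exact 95% interval 0.0602 to 1.82; exact binomial test, two-sided, p = 0.449, Benjamini-Hochberg adjusted over 4 tests 0.599). It was 0.263 for BX-C (0.00664 to 1.48; exact p = 0.195, adjusted 0.389) and 0.385 for both (0.0788 to 1.14; exact p = 0.0968, adjusted 0.387). ANT-C and BX-C were not distinguished from each other either, with a ratio of 1.9 (0.0988 to 112; exact p = 1, adjusted 1). The density in the complexes was lower in value than elsewhere, but none of the 4 differences passed the test, and the intervals leave room for a density equal to that of the rest of the arm. The test takes peaks as independent, and peaks within 5 kb of each other are common enough that 247 became 207 when they were joined.

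**Figure D3:**
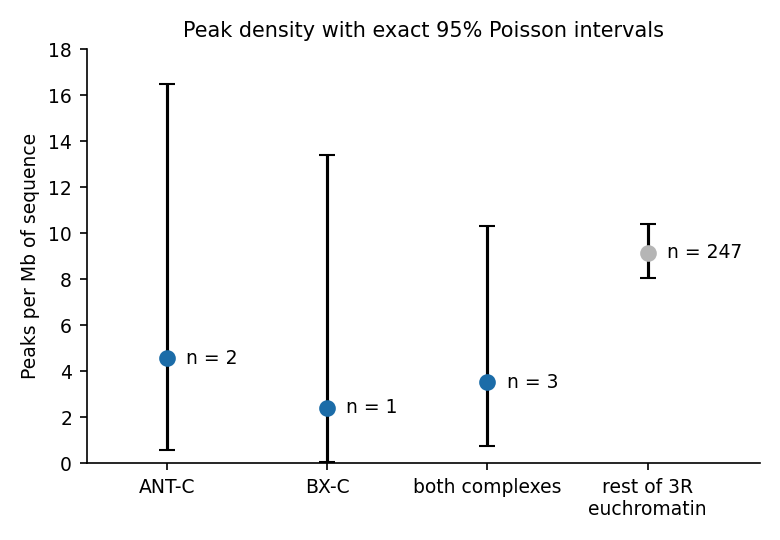
Peaks per Mb of sequence in ANT-C, BX-C, both complexes and the rest of 3R euchromatin, with the number of peaks (n) and exact 95% Poisson intervals as bars. The intervals of the complexes are wide because they rest on 2, 1 and 3 peaks, and all reach the 9.14 per Mb of the rest.

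Stretches of equal length elsewhere on the arm showed how uneven the peaks were. In 59 tiles as long as ANT-C, the number of peaks ran from 0 to 12 with a median of 3, and 21 tiles (35.6%) had 2 or fewer. In 63 tiles as long as BX-C it ran from 0 to 10 with a median of 4, and 12 (19%) had 1 or none. Neither complex stood outside that range, but since some tiles held 0 peaks, no low count could have. Peaks covered 443 bp (0.101%) of ANT-C and 254 bp (0.0611%) of BX-C, against 0.456% of the rest, and all 3 were narrower than the median peak of 3R euchromatin (324 bp). The Doc peak was among the narrowest, with 12 of 250 peaks narrower, against 66 for the Taf1 peak and 51 for the Sf3a1 peak.

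The share of sequence to which reads can be assigned was slightly higher in the complexes than in the rest of the arm, and their gene starts were sparser. Unique 75 bp words made up 98.8% of ANT-C and 97.3% of BX-C, against 96.6% of the rest, and 16.5% and 15.7% were repeat-masked, against 15.8%. Protein-coding genes started at 66.2 per Mb in ANT-C and 84.2 per Mb in BX-C, against 124 per Mb. Per 100 such genes there were 6.9 peaks in ANT-C and 2.86 in BX-C, against 7.39. The part of gene density in the lower peak density was not tested. Among the other genes starting in the windows, 2 of 56 protein-coding genes (Taf1 and Sf3a1) had a start in a peak (3.57%, Wilson 95% interval 0.985 to 12.1%), near the 4.37% of the arm. Of 42 non-coding genes 0 did, and 3 of 795 did in all of 3R euchromatin (0.377%).

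Of the 3 peaks in the windows, 0 were intergenic, against 67 of 247 (27.1%) elsewhere on euchromatic 3R. At that share 0.814 of 3 would be, so that the count was near the background. The non-coding transcripts between the Hox genes, lncRNA:bxd, lncRNA:iab4 and lncRNA:iab8 in BX-C, the microRNA genes mir-iab-4 and mir-iab-8 there, and mir-10 and mir-993 in ANT-C had no peak in their bodies. The genes of ANT-C that derive from Hox genes or pattern the embryo, zen, zen2, bcd and ftz, and the adhesion gene Ama had none. Nearest of these to a peak was zen2, 4977 bp from the Doc peak, and the distance of lncRNA:bxd was 172237 bp.

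The starts of 7 Hox genes fell in 2 peak-free stretches, and those of lab in a shorter one. The first ran for 347256 bp from the Doc peak to the alphaTub84B peak, over the pb start and the whole of Dfd, Scr and Antp, and held 22 protein-coding genes. The second ran for 428117 bp from the intergenic peak beyond Ubx to the Sf3a1 peak, over the whole of Ubx, abd-A and Abd-B, and held 33 protein-coding genes. They ranked 17th and 8th by length among the 249 stretches of 3R euchromatin, whose median was 70373 bp and whose longest was 956087 bp, and 21 stretches exceeded 300 kb. The stretch over lab, between the Taf1 and Doc peaks, was 91906 bp. A long stretch takes in more genes than a short one, and the longest held 102 protein-coding genes. A rank among stretches is therefore not the share of genes that lie in stretches as long. The Hox stretches were singled out after their values were seen and were given no test. Counting uniquely placed peaks only was also a choice made after seeing the data. The first stretch then grew to 439340 bp, from the Taf1 peak and over lab as well, and the second kept its length.

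**Figure D4:**
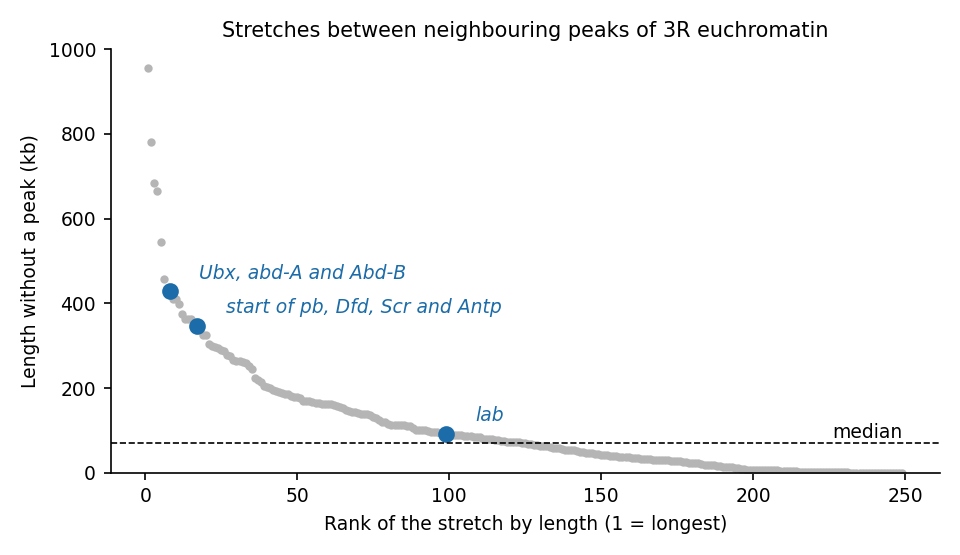
Length in kb of the 249 stretches between neighbouring peaks of 3R euchromatin, ordered from the longest, with the stretches over Hox starts in blue and the median as a dashed line. The stretch over Ubx, abd-A and Abd-B (428117 bp) ranks 8th, that over Dfd, Scr, Antp and the pb start (347256 bp) 17th, and that over lab (91906 bp) 99th.

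The promoters of the Hox genes were set beside those of genes with a start in a peak by the motifs they held. In the 300 bases from 250 before to 50 after the 5′-most start, GAGAG occurred in 7 of 8 Hox promoters, all but Abd-B, with 6 overlapping matches in Dfd, 5 in Scr and abd-A and 4 in Ubx. It occurred in 29.7% of 13968 protein-coding promoters. Among the 149 protein-coding genes of 3R euchromatin with any start in a peak, 22 held it in this window (14.8%). For genes with several starts, the covered start need not be the 5′-most. TATCGATA was in 0 of 8 Hox promoters, 9.36% of all and 38 of the 149 (25.5%); at the share over all promoters, 0.749 of 8 would hold it, so that the count of 0 was near that background. GCCAT was found in 6 of 8, all but lab and Antp, against 41.2% and 48.3%, and TCAGT in 6 of 8, all but Antp and abd-A, against 51.5% and 36.2%. TATAAA was in 1, Antp, against 45.8% and 45%. Over their whole width, the Taf1 and Sf3a1 peaks each held 1 GCCAT and none of the other 4 motifs. The sequences above show the GCCAT in capitals, but print only the upstream part of each peak. These are counts of letters in fixed windows, given without a test, and say nothing of whether the factors bind there.

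The genes that act with or upon the Hox genes were counted in the same way, as starts in a peak. None of 8 Hox cofactors (such as exd and hth, which encode the homeodomain partners of Hox proteins), none of 15 segmentation regulators (such as Kr, and hb, which is in both lists), none of 15 insulator factors of the BX-C and none of 23 haltere and leg targets was called, beside the background of 5.68% over the genome. These counts are not separate results, because the lists overlap further. Cofactors and targets share tsh, hth and salm, and Trl is in the insulator list and in the Trithorax list below. Antp, itself a Hox gene, is counted among the targets. A peak lay in the body of 1 target, bs (the serum response factor gene), with 0% unique words. Of 24 Polycomb group genes, 2 were called (8.33%, where 1.36 would be at 5.68%): Pc, whose protein reads the methylated histone mark of silenced genes, with a peak of 258 bp, and Asx, with 371 bp. A 3rd, jing, had a peak in its body only, with 0% unique words. The paper classes Asx as an Enhancer of Trithorax and Polycomb, so this share and that of the next list depend on its placement here.

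Of 16 genes of the Trithorax group and of the class of Enhancers of Trithorax and Polycomb, 5 were called (31.2%), beside 5.68% of the protein-coding genes of the genome, at which 0.909 of 16 would be. They were trx (268 bp), the H3K4 methyltransferase gene that keeps Hox genes active, mor (370 bp) and osa (472 bp), subunits of the Brahma chromatin remodeller, fs(1)h (436 bp), a BET bromodomain protein gene, and Vha55 (431 bp), a subunit of the vacuolar proton pump. In these 5 and in Pc and Asx, the peak covered the start and 100% of its words were unique. The lists were small, were chosen with earlier results of these data known and got no test, so the shares are descriptions. The background counts all protein-coding genes, whether or not they are expressed in the disc.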

How the data were processed

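ChIP-seq was made from wing discs, 600 per library, with 3 µg of anti-Myc antibody in each of 12 tubes and 2% of the chromatin kept as input. ChIP and input libraries (38 ng of DNA each) were sequenced as single reads of 75 bp, and the mock pair (5 ng) as reads of 50 bp. The authors aligned reads to dm6 with Bowtie2 2.1.0 at default settings, called peaks on each replicate against its own input with MACS2 2.1.0, kept those reproducible between replicates (irreproducible discovery rate under 0.05) and merged them with bedtools. The deposited table holds, per peak, chromosome, 0-based start and end, and no other value: it is 1 pooled list of both replicates, and heights, widths before merging and reads per library were not analysed here. At the default setting, Bowtie2 places a read that fits several sites equally well at 1 of them, which bears on peaks in repeats.

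Positions were converted to 1-based and set against the Ensembl 115 annotation (BDGP 6.54) and the RefSeq sequence of the same assembly, whose arm names and lengths were compared. Transposable elements and unnamed RNA fragments were left out of the genes, which left 17873. A peak was given the first class that applied of transcript start, transcript end, exon, intron and intergenic. A peak was called unique where at least 90% of its 75 bp words occurred once in the genome on both strands. Peak densities were compared by the exact conditional binomial test, two-sided, on sequence without N, at a threshold of 0.05 with Benjamini-Hochberg adjustment over 4 tests, in Python 3.11.15 with numpy 2.4.6, scipy 1.17.1 and matplotlib 3.10.9. The functions were tested on simulated data. Densities lower than that of the rest were simulated only with far more peaks than were found here. Older symbols were matched through RefSeq synonyms (h as hry, CG13222 as Cpr47Ee).

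The text names the 8 Hox genes, each peak in their windows, genes with a start in such a peak, the genes at the nearest peaks outside and list members with a start in a peak. Genes named beyond that rule (Irc, zen2, bs, jing, CycG and the transcripts of the complexes) were chosen after their values were seen. The members and gene lists were chosen with earlier results of these data known. Alternatives varied the flank, the length used, the peaks counted, the border of euchromatin and the comparison region.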

Additional observations from a re-analysis of the deposited data

How the results depend on the processing

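Neither the direction of the 3 density ratios against the rest of 3R euchromatin nor their place on the side of the threshold changed in any of the 13 alternatives run for each. Where the count was already 0, no lower count was possible, so a lower density could not have passed and the outcome is no sign of stability. This held for BX-C with flanks of 0 or 20 kb and for each complex and both together with peaks at or above the median width. The ratio ranged from 0 to 0.611 for ANT-C, 0 to 0.448 for BX-C and 0 to 0.52 for both, and the lowest adjusted p of the exact test was 0.214. The ratio of ANT-C to BX-C turned from 1.9 to 0.949 when only unique peaks or only peaks at least 200 bp wide were counted, both of which drop the Doc peak in pb, and it had no value with flanks of 0 or 20 kb, where BX-C held no peak, or with wide peaks, where neither complex did. Without the Doc peak, the number of Hox genes overlapped by a peak fell from 1 to 0 with unique peaks and with peaks at or above the median width of 365 bp. The median distance of the Hox starts became 119936.5 bp with unique and 305245.5 bp with wide peaks, and with wide peaks, a choice made after seeing the data for the stretches, the peak-free stretches grew to 671813 bp over Dfd, Scr and Antp and to 1373644 bp over Ubx, abd-A and Abd-B. With no flank, the share of the complexes inside peaks was 0.0527% in place of 0.0817%. No paired analysis was possible because the deposited list pools both replicates and gives no value per replicate, and for the same reason no replicate could be left out. With 3 peaks and no scores, at most large differences in density could have been detected. In the settings with 0 peaks named above, not even a large decrease could have been. A complete absence of peaks did not pass the exact test there. Weaker binding at the Hox genes, below the peak caller's threshold, was not tested.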
